A study of Mus musculus with 9 samples.

Results

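Potassium channel genes, taken as every row of the deposited gene table whose symbol starts with Kcn, were described across sorted cells of the embryonic mouse cortex. The rule found 81 rows with 80 symbols among 21210 genes, Kcnh8 being listed under 2 Ensembl identifiers. Of these rows, 65 reached 10 normalised reads in at least 3 of the 9 libraries and were tested, and 16 did not. The symbol rule also takes in accessory subunits that form no pore, such as Kcnip, Kcnab, Kcne and Kcnmb.

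The series measured polyadenylated RNA by strand-specific sequencing in lateral cortex of C57BL/6 embryos at day 14.5, with the genotype label Btg2GFP/Tubb3GFP on every library. Fluorescence sorting gave proliferating progenitors (RFP–, Btg2 negative), differentiating progenitors (RFP+, Btg2 positive) and neurons (GFP+, Tubb3 positive), with 3 libraries each. Each library pooled cells of several embryos from different litters, so a spread between libraries is not a spread between single animals. The titles name a red reporter for the Btg2 gate and the genotype label a green one for both, and groups were assigned by title and cell type label. Btg2 marks progenitors about to divide into neurons, and Tubb3 is a tubulin of young neurons. In what follows the first step is differentiating over proliferating progenitors and the second step is neurons over differentiating progenitors.

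Potassium channels let potassium ions leave or enter the cell along their gradient and so set the resting potential and end the action potential. Voltage-gated channels of the Kcna to Kcnd, Kcnq and Kcnh families open on depolarisation, and silent subunits (Kcnf, Kcng, Kcns, Kcnv) assemble with other voltage-gated subunits and modify them. Calcium- or sodium-activated channels (Kcnma, Kcnn, Kcnt) couple ion entry to repolarisation, inward rectifiers (Kcnj) and tandem-pore channels (Kcnk) carry resting and leak currents. Radial glia, the proliferating progenitors of the cortex, are known for a very negative resting potential and high potassium permeability, whereas neurons acquire the channels of excitability as they mature.

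The libraries held an estimated 12653597 to 27585167 reads in genes. Radial glia markers summed to 104199 to 122277 normalised reads in proliferating progenitors, 46275 to 69360 in differentiating progenitors and 5732 to 7096 in neurons, intermediate progenitor markers to 22169 to 26312, 54928 to 70419 and 9514 to 11784, and 6 neuron markers ran the other way from radial glia (2049 to 5739, 30094 to 36886 and 139372 to 165576). Btg2 itself, which defined the gate, stood at 14022 to 19983 in differentiating progenitors against 7032 to 9336 in proliferating progenitors. It is one of the intermediate progenitor markers. Tubb3, which defined the neuron gate, is one of the neuron markers and stood at 39932 to 50230 in neurons. The sums of these lists are therefore partly set by the sort. The replicate 1 libraries of all 3 groups stood apart from replicates 2 and 3 on the second principal component of all genes (11.6% of the variance), so the main counts are also given for replicates 2 and 3 alone. Values given for a gene below are its normalised read counts in libraries 1, 2 and 3 of each group, changes are on the log2(value + 1) scale with their SE, and 3 libraries a group entered every test.

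Summed over all members, potassium channel genes took a similar share of reads in both progenitor groups and a larger one in neurons. They took 0.065 to 0.077% of all normalised reads in proliferating progenitors, 0.072 to 0.079% in differentiating progenitors and 0.196 to 0.214% in neurons. In bulk RNA of this kind, fewer cells that express a gene and less RNA per cell cannot be told apart. Per kilobase of gene length, which allows genes to be compared, the members summed to 2741.3 ± 252.6, 3194.8 ± 181.0 and 7695.1 ± 317.3 normalised reads in proliferating progenitors, differentiating progenitors and neurons (SD, n = 3 libraries each).

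The genes that made up this sum changed between the groups. In proliferating progenitors 5 genes, Kcnk10, Kcnj10, Kcna3, Kcnip3 and Kcnk5, held 50.5% of the sum per kilobase. In neurons the leading genes per kilobase included Kcnq3 at 12.4%, Kcnj11, Kcng1 and Kcnn2. Tandem-pore channels held 27.5%, 16.9% and 6.0% of the per-kilobase sum in proliferating progenitors, differentiating progenitors and neurons, while the Kcnq family held 1.5%, 4.8% and 25.0%. Accessory subunits held 22.6%, 25.5% and 7.8%, and the Kcna to Kcnd channels stayed between 19.1% and 19.7% in all 3 groups.

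**Figure D1:**
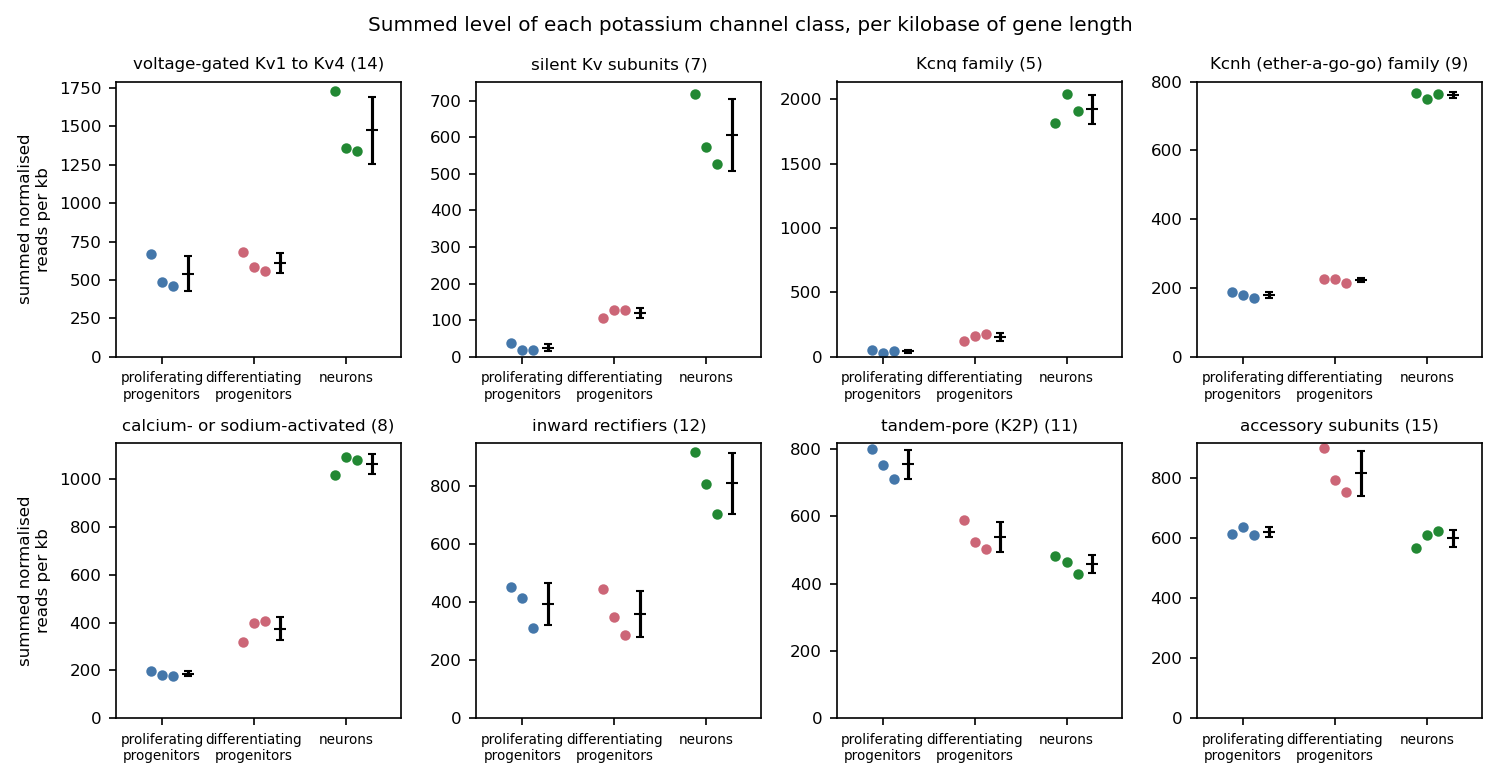
Summed normalised reads per kilobase of gene length for each class of potassium channel gene (number of members in brackets), with 1 point per library and the mean ± SD beside the points. Neurons sit above both progenitor groups in 6 of the 8 classes. Tandem-pore channels are highest in proliferating progenitors and accessory subunits are highest in differentiating progenitors.

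Over all 65 tested members, 29 were higher and 5 lower at the first step and 31 did not pass (limma on log2(value + 1), Benjamini-Hochberg adjusted p under 0.05 over all 15828 genes tested). Among all genes 24.9% passed at this step, 13.8% as higher and 11.1% as lower. At the second step 50 members were higher, 8 lower and 7 not called, against 54% of all genes called, 27.6% higher and 26.4% lower. Between neurons and proliferating progenitors 50 were higher, 11 lower and 4 not called, against 63.3% of all genes called, 32.2% higher and 31.1% lower. Median log2 changes of the members were 0.53, 1.81 and 2.77 in these 3 comparisons, beside medians within 0.02 of 0 over all genes.

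Many members passed the filter only through the group where they were high, so their calls in that direction are partly built in. Kcna4, Kcnab1, Kcnc4, Kcng3, Kcnj5, Kcnj6, Kcnk3, Kcnk12, Kcnmb2 and Kcns2 reached 10 normalised reads only in neurons. Kcnk13 did so only in differentiating progenitors, and Kcnj8 and Kcns3 only in proliferating progenitors. Of the 65, 45 reached 10 normalised reads in at least 1 library of every group. Some of these were still low in a group, such as Kcnv1 with 10, 4 and 6 in proliferating progenitors. Among these 45, 21 were higher and 3 lower at the first step and 36 higher and 6 lower at the second. In replicates 2 and 3 alone the counts were 26 higher and 4 lower at the first step, 40 and 7 at the second, and 41 and 8 for neurons over proliferating progenitors. The shares of all genes there were 19.9% and 17.8%, 30.6% and 31%, and 35.1% and 35.5%. Of the 65 members, 51 passed the filter on low values in those libraries. It still asked for 3 libraries, so members reaching 10 in only 1 group dropped out. Among the 51 members, the calls lost were 1, 0 and 1 in the 3 comparisons. With the replicate number as a block in the fit, the first step had 32 higher and 12 lower members, beside 24% and 22% of all genes. Without any 1 progenitor library, the number lower at the first step was 2 or 3, beside 6.76% to 12% of all genes. Without any 1 proliferating progenitor library, the number lower in neurons than in proliferating progenitors was 6 or 7, beside 28.1% to 30.4%. Kcnj8 and Kcns3 were not tested without a proliferating progenitor library, since the filter still asked for 3 libraries. Scaling to the library totals moved the median of all genes by −0.07, −0.21 and −0.29 in the 3 comparisons, and gave 28 higher and 9 lower, 47 and 8, and 47 and 12 members. Under that scaling 11.9% of all genes were called higher and 14.2% lower at the first step. The shares were 21.4% and 35.3% at the second step, and 24.7% and 41.7% for neurons over proliferating progenitors.

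**Figure D2:**
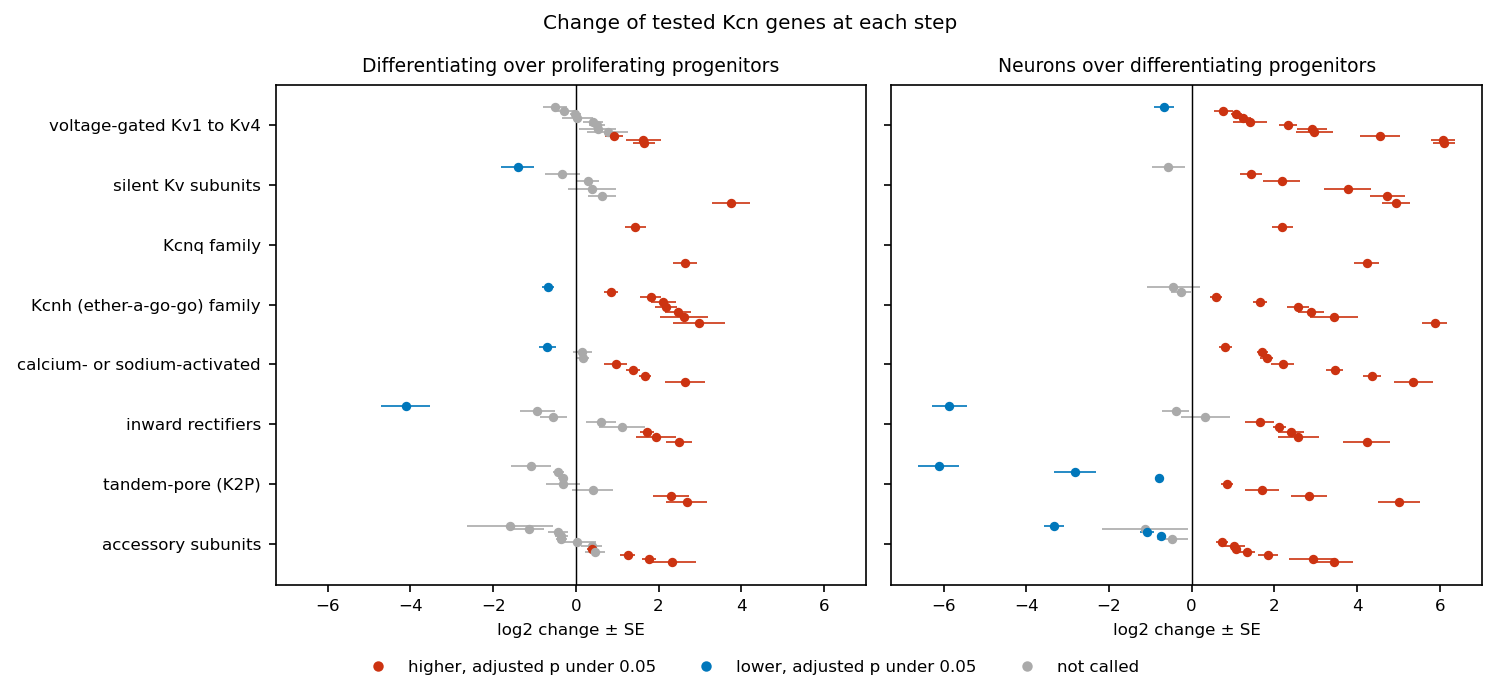
Log2 change with its SE for 61 of the 65 tested members at the first step (left) and the second step (right), by class; red and blue points passed an adjusted p of 0.05 and grey points did not. The plotted Kcnq genes lie right of 0 at both steps, and the largest falls at the second step are an inward rectifier (Kcnj10) and a tandem-pore channel (Kcnk5).

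By pattern over both steps, 24 members were higher at each step (8.12% of all genes) and 23 were not called at the first and higher at the second (17% of all genes). Both counts include genes named above that passed the filter only through neurons, whose higher calls are partly built in. The 24 include both Kcnh8 rows. A further 5 were not called and then lower (18.5%), and 0 were lower at both steps (5.7%). That 0 holds for the main fit. With the replicate block Kcnj10 and Kcnk10 were lower at both steps (first-step adjusted p = 0.00235 and 0.00309). Kcnk5 was lower at both with only the 2 groups in the fit (first-step adjusted p = 0.00899). Of the remaining 13, 3 were highest (2.2% of all genes) and 3 lowest (2.51%) in differentiating progenitors. At the first step alone 2 were higher (3.49%) and 2 lower (2.9%), and 3 passed at neither step (39.6%).

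**Figure D3:**
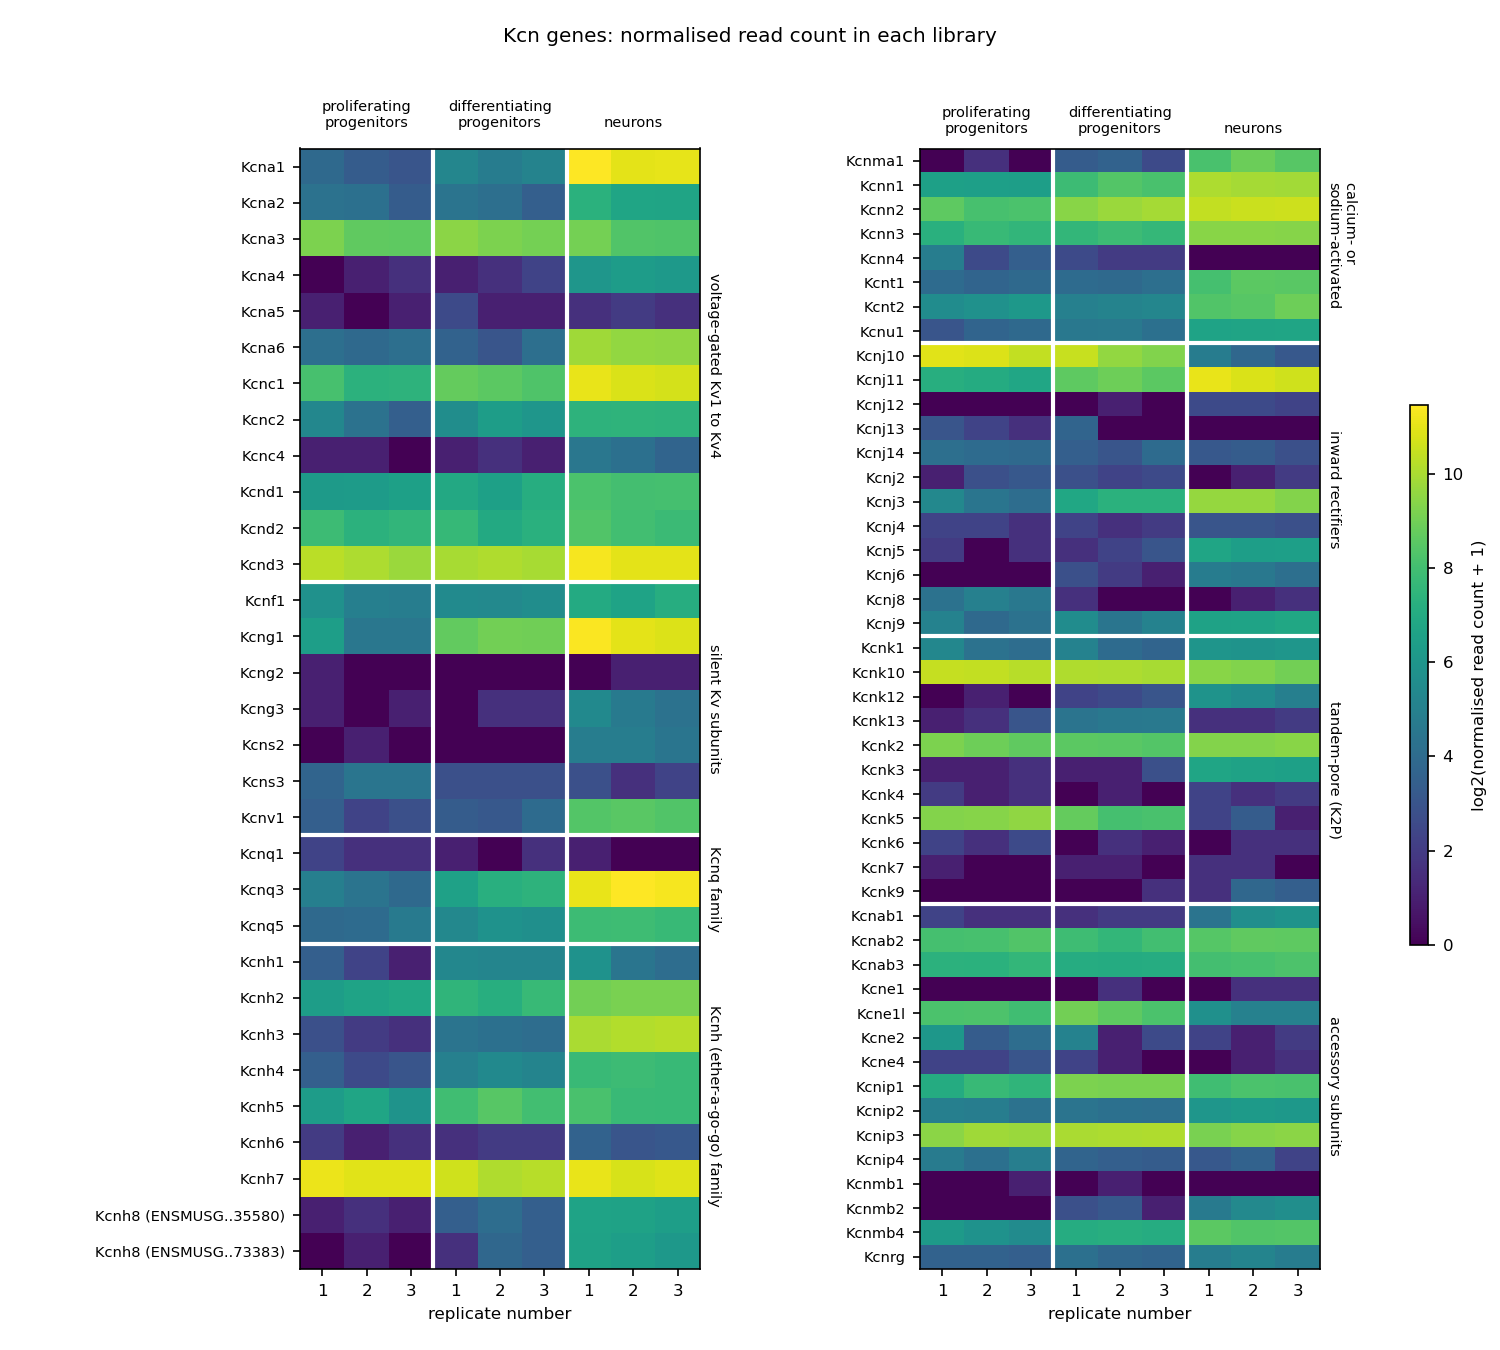
Log2(normalised read count + 1) of 77 of the 81 Kcn rows in each of the 9 libraries, ordered by class and subfamily. Most rows brighten in the neuron libraries, while Kcnj10 and Kcnk5 are bright in the progenitor libraries and dark in neurons.

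The extremes between neurons and proliferating progenitors included rises in a calcium-activated channel and a delayed rectifier and falls in a tandem-pore channel and an inward rectifier. Kcnma1, the large-conductance BK channel opened by calcium and voltage, had 0, 2 and 0 in proliferating progenitors, 9, 11 and 5 in differentiating progenitors, with 288, 474 and 359 in neurons. Kcna6, a delayed-rectifier subunit of the Kcna family, had 17, 14 and 17 in proliferating progenitors, 11, 7 and 17 in differentiating progenitors, with 918, 764 and 761 in neurons. Both were low in every progenitor library and high in every neuron library. Neurons over proliferating progenitors gave 7.99 ± 0.48 (adjusted p = 6.63e-07) for Kcnma1 and 5.58 ± 0.29 (adjusted p = 2.43e-07) for Kcna6. The size for Kcnma1 depends on the pseudocount, being 8.74 with 0.5 and 6.05 with 5.

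Kcnk5, an alkaline-activated leak channel (TASK2), had 650, 657 and 744 in proliferating progenitors, 432, 269 and 285 in differentiating progenitors, with 4, 9 and 1 in neurons. Kcnj10, the inward rectifier of glia that clears extracellular potassium, had 1969, 1834 and 1337 in proliferating progenitors, 1426, 786 and 617 in differentiating progenitors, with 27, 13 and 8 in neurons. No neuron library overlapped any progenitor library for either gene. Neurons over proliferating progenitors gave −7.20 ± 0.49 (adjusted p = 1.44e-06) for Kcnk5 and −6.80 ± 0.43 (adjusted p = 8.28e-07) for Kcnj10, and the second step gave −6.12 ± 0.49 (adjusted p = 6.43e-06) and −5.86 ± 0.43 (adjusted p = 3.34e-06). At the first step neither passed, with −1.08 ± 0.49 (adjusted p = 0.152) and −0.93 ± 0.43 (adjusted p = 0.154). Kcnj10 in differentiating progenitors overlapped proliferating progenitors through library 1, and it passed as lower with the replicate block (adjusted p = 0.00235) and in replicates 2 and 3 alone (0.00486). For Kcnk5 the libraries of the 2 progenitor groups did not overlap. Kcnk5 passed as lower without neuron library 3 (adjusted p = 0.0304), with a pseudocount of 5 (0.0298) and with only the 2 groups in the fit (0.00899). The authors' deposited values for Kcnk5 at this step were a fold change of 0.48 and an adjusted p of 3.6e-06.

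The promoter windows of these 4 genes are shown because they are the pair with the largest rises and the pair with the largest falls among members with a higher group mean of at least 100 and exactly 1 promoter window in the table used. Kcnh3, Kcna1, Kcnq3 and Kcng1 rose more than Kcna6 and are described below. Each runs from 250 bases before to 50 bases after the gene start, from RefSeq on build GRCm38.p6, whereas the deposited values were made on mm9. Capitals mark GC boxes (GGGCGG, or CCGCCC on the other strand), which may overlap each other. The windows lie at chr14:24004156-24004455, minus strand (Kcnma1), chr6:126740625-126740924, minus strand (Kcna6), chr14:20181733-20182032, minus strand (Kcnk5) and chr1:172340960-172341259, plus strand (Kcnj10).
Kcnma1: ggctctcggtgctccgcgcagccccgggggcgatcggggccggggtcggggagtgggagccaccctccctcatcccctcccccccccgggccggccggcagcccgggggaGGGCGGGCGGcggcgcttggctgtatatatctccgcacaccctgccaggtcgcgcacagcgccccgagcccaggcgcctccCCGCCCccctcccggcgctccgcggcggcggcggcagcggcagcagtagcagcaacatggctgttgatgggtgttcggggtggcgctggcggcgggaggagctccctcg
Kcna6: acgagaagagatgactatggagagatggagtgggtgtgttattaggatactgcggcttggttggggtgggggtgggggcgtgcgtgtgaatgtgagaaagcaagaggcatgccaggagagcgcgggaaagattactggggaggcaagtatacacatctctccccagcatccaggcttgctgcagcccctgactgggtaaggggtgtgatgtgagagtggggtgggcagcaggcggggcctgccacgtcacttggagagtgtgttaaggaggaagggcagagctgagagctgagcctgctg
Kcnk5: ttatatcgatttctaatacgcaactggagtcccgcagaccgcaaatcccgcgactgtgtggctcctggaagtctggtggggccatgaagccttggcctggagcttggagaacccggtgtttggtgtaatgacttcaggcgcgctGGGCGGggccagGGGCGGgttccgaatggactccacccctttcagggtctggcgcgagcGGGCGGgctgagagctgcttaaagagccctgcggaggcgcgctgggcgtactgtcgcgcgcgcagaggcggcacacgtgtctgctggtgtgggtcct
Kcnj10: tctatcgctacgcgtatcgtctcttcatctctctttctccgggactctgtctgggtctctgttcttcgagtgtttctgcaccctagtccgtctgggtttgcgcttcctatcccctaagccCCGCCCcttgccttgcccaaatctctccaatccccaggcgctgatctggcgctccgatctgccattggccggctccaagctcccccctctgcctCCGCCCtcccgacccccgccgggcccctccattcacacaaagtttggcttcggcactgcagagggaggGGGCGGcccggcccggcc

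The windows of Kcnma1, Kcnk5 and Kcnj10 each held 3 GC boxes, and that of Kcna6 held 0. Their GC contents were 78.0% for Kcnma1, 58.3% for Kcna6 and 63.7% for both Kcnk5 and Kcnj10. RefSeq windows were found for 57 Kcn symbols, with 78 windows in all. On either strand, GGGCGG was in 52.6% of Kcn windows and 35.7% of all 32851 windows, the TATA box TATAAA in 3.8% and 13.6%, the proneural E-box CAGATG in 16.7% and 17.2%, and CAGCTG in 24.4% and 16.3%. Kcn windows had a median GC content of 60.0% against 52.7% over all windows. A match of letters is not a bound site, and windows of 1 gene overlap.

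The Kcnq family includes subunits of the M-current channels, which restrain repetitive firing. Kcnq3, one of these subunits, had 30, 20 and 14 in proliferating progenitors, a mean of 136.3 ± 38.8 in differentiating progenitors (SD, n = 3), with 2178, 2813 and 2533 in neurons. Every library of a later group was above every library of an earlier one. Kcnq3 changed by 2.64 ± 0.30 (adjusted p = 2.89e-04) at the first step and 4.23 ± 0.30 (adjusted p = 2.61e-06) at the second. Per kilobase, neurons had 956.5 ± 121.4 normalised reads of Kcnq3 (SD, n = 3), the highest level among the members.

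Kcnq5, which also contributes to M-type currents, was less abundant and had 14, 15 and 25 in proliferating progenitors, 40, 56 and 52 in differentiating progenitors, with 233, 235 and 213 in neurons. Its groups did not overlap, and it rose by 1.44 ± 0.25 (adjusted p = 0.00304) and 2.19 ± 0.25 (adjusted p = 6.34e-05) at the same steps. Kcnq1, the cardiac family member, had at most 4 normalised reads in any library and was not tested.

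**Figure D4:**
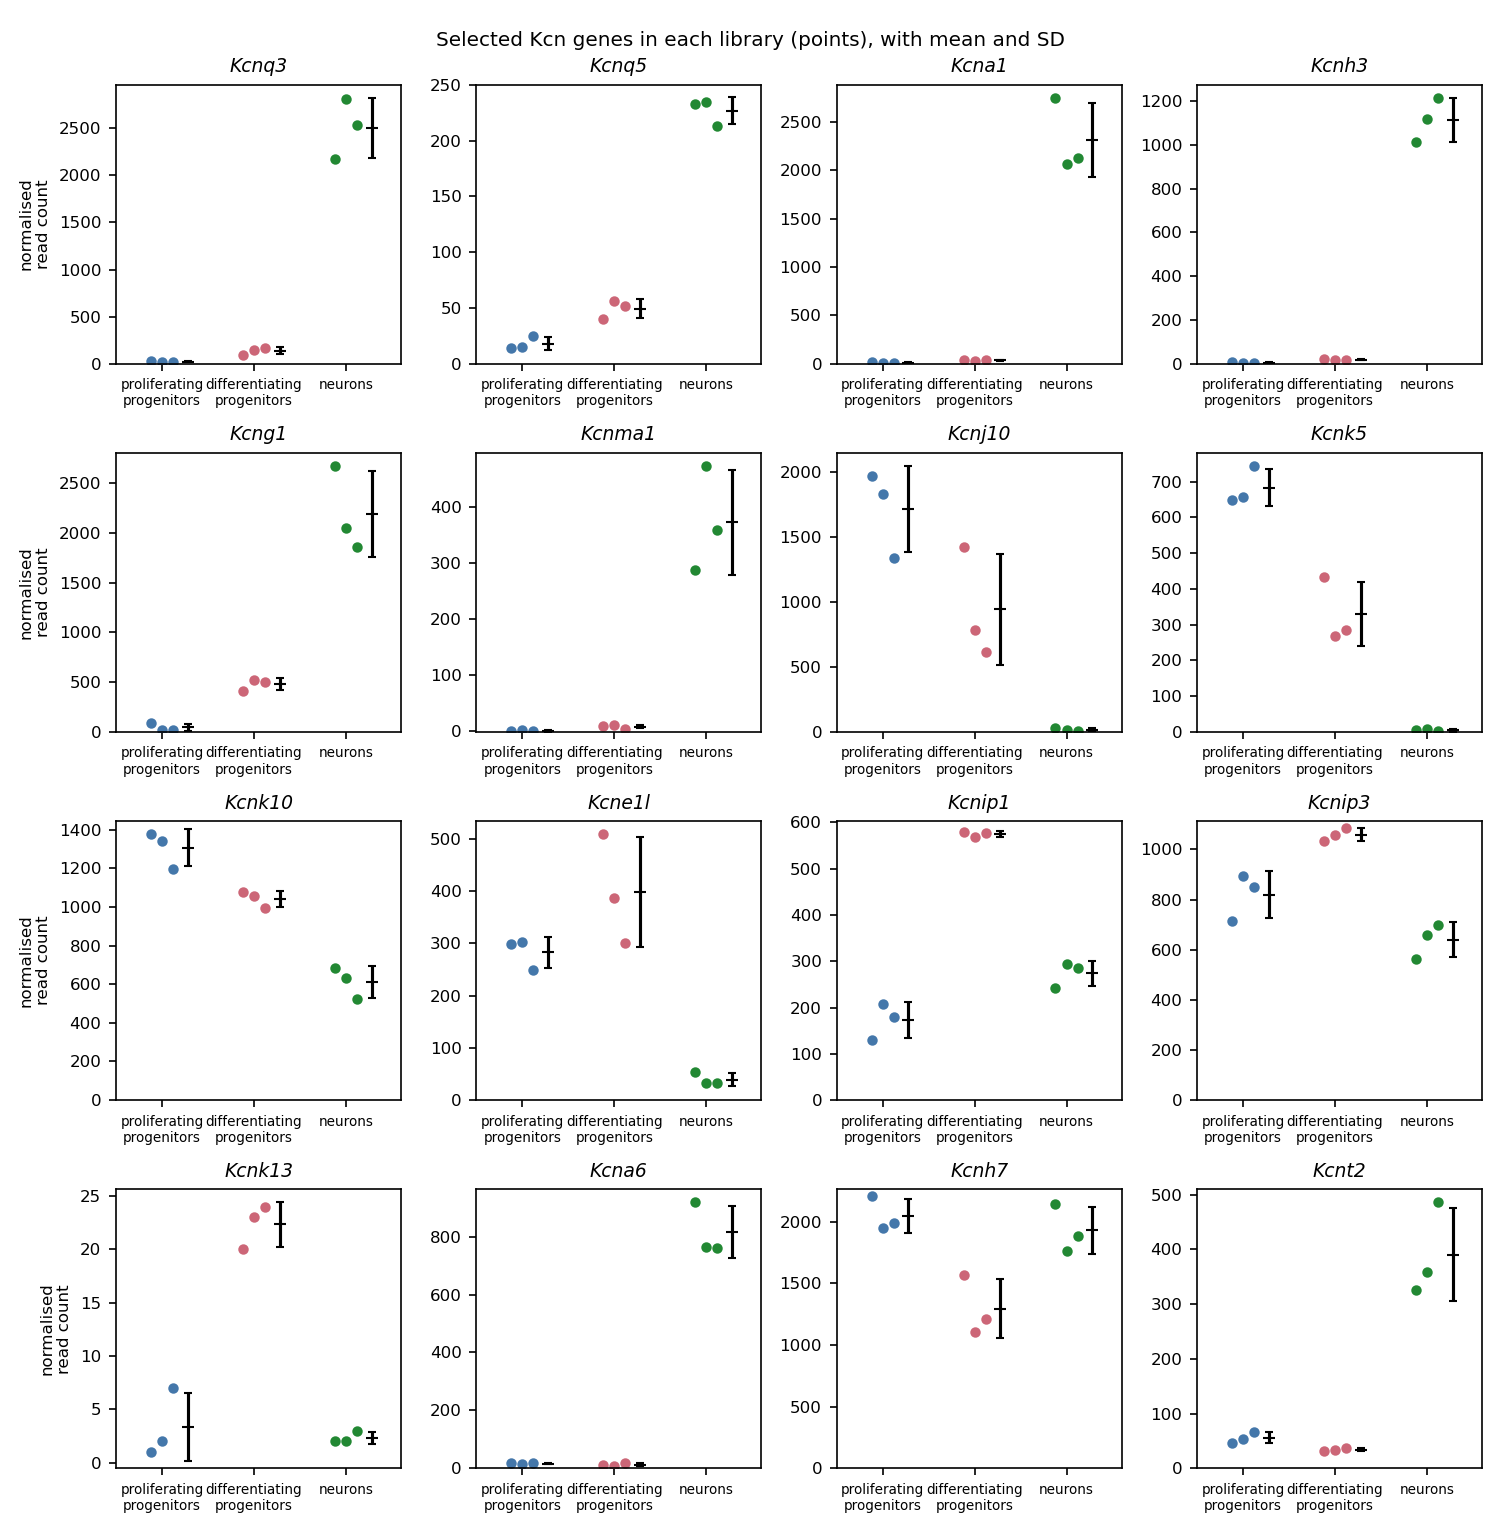
Normalised read counts of 16 Kcn genes in each library (points) with the mean ± SD beside them, in proliferating progenitors, differentiating progenitors and neurons from left to right. Kcnq3, Kcnq5, Kcna1, Kcna6, Kcnh3, Kcng1 and Kcnma1 are highest in neurons, Kcnj10 and Kcnk5 are near 0 there, Kcnip1, Kcnip3 and Kcnk13 peak in differentiating progenitors, and Kcnh7 and Kcnt2 are lowest there.

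Among the Kcna to Kcnd voltage-gated channels, 13 of 14 were tested, with 4 higher and 1 lower at the first step and 12 higher and 1 lower at the second. Among all genes 13.8% were higher and 11.1% lower at the first step, and 27.6% and 26.4% at the second. Kcna4 and Kcnc4 passed the filter only through neurons, so their higher calls are partly built in. Kcna1, a low-threshold axonal delayed rectifier, had 14, 9 and 7 in proliferating progenitors, 37, 27 and 34 in differentiating progenitors, with 2751, 2062 and 2125 in neurons. It rose at both steps without overlap, by 1.65 ± 0.26 (adjusted p = 0.00168) and 6.10 ± 0.26 (adjusted p = 1.49e-07). Kcna4, an A-type subunit, had 0, 1 and 2 in proliferating progenitors, 1, 2 and 4 in differentiating progenitors, with 63, 80 and 73 in neurons, and Kcna2, a partner of Kcna1 in axons, had 19, 18 and 9 in proliferating progenitors, 20, 17 and 10 in differentiating progenitors, with 159, 106 and 102 in neurons. Progenitor groups overlapped for both, all neuron libraries were higher, and the second step gave 4.55 ± 0.49 (adjusted p = 4.64e-05) and 2.91 ± 0.37 (adjusted p = 1.28e-04).

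Kcna3, known best from lymphocytes, was the one Kcna gene that was high in progenitors. It had 594, 400 and 391 in proliferating progenitors, 704, 584 and 531 in differentiating progenitors, with 536, 327 and 310 in neurons. The groups overlapped at every comparison, and it was called lower at the second step (−0.67 ± 0.24, adjusted p = 0.0422), a call lost without proliferating progenitor library 2 or 3 or differentiating progenitor library 1, 2 or 3 or neuron library 2 or 3 (adjusted p 0.0514 to 0.145) and without the intensity trend (0.0581). With the replicate block it passed as higher at the first step (adjusted p = 0.00559) and as lower in neurons than in proliferating progenitors (adjusted p = 0.0284), and likewise in replicates 2 and 3 alone (adjusted p = 0.00648 and 0.0265).

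Kcnc channels are fast delayed rectifiers of rapidly firing neurons. Kcnc1 had 276, 164 and 169 in proliferating progenitors, 435, 383 and 312 in differentiating progenitors, with 2150, 1815 and 1677 in neurons. All neuron libraries were highest, with a second-step change of 2.32 ± 0.22 (adjusted p = 1.64e-05). The first-step call for Kcnc1, 0.92 ± 0.22 (adjusted p = 0.0136), was lost without proliferating progenitor library 2 or 3 or differentiating progenitor library 2 (adjusted p 0.05 to 0.0553). Kcnc2 had 39, 19 and 10 in proliferating progenitors, 48, 81 and 64 in differentiating progenitors, with a mean of 169.0 ± 3.5 in neurons (SD, n = 3). It rose at both steps (1.63 ± 0.42, adjusted p = 0.0204, and 1.41 ± 0.42, adjusted p = 0.0178), with the first-step call lost without proliferating progenitor library 2 or differentiating progenitor library 2 or 3 (adjusted p 0.0624 to 0.081) and with only the 2 groups in the fit (0.0547) and the second-step call lost without differentiating progenitor library 1 or neuron library 2 (adjusted p 0.0512 to 0.0564). The rare Kcnc4 (at most 22 normalised reads) passed at the second step with 2.96 ± 0.45 (adjusted p = 4.05e-04). Its size depends on the pseudocount, being 3.49 ± 0.45 (adjusted p = 1.04e-04) between neurons and proliferating progenitors and 1.96 there with a pseudocount of 5.

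Kcnd channels, the A-type channels of dendrites, were already present in proliferating progenitors. Kcnd3 had 1225, 1063 and 849 in proliferating progenitors, 984, 1101 and 1006 in differentiating progenitors, with 2499, 2026 and 2028 in neurons. It did not pass at the first step (−0.01 ± 0.14, adjusted p = 0.986) and rose at the second (1.08 ± 0.14, adjusted p = 1.74e-04), where all neuron libraries exceeded all progenitor libraries. Kcnd1 rose at the second step by 1.24 ± 0.19 (adjusted p = 3.91e-04) and passed at the first with the replicate block (adjusted p = 0.0164) and without differentiating progenitor library 2 (adjusted p = 0.0284). Kcnd2 gave 0.76 ± 0.23 (adjusted p = 0.0181) at the second step, lost without differentiating progenitor library 2 or neuron library 1 (adjusted p 0.0617 to 0.0666) and under scaling to the library totals (0.0774), and in neurons over proliferating progenitors passed with the replicate block (adjusted p = 0.00386), without proliferating progenitor library 1 (adjusted p = 0.0478) and in replicates 2 and 3 alone (0.0279).

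Silent subunits, which form no channel alone, were largely higher in neurons: 5 of the 6 tested passed as higher at the second step and 0 as lower, beside 27.6% and 26.4% of all genes. Of these, Kcng3 and Kcns2 passed the filter only through neurons, so their higher calls are partly built in. Kcng1 had 85, 22 and 22 in proliferating progenitors, 414, 524 and 505 in differentiating progenitors, with 2674, 2046 and 1854 in neurons, and Kcnv1 had 10, 4 and 6 in proliferating progenitors, 9, 8 and 15 in differentiating progenitors, with 340, 371 and 329 in neurons. Kcng1 rose at both steps without overlap, by 3.75 ± 0.45 (adjusted p = 4.25e-04) and 2.18 ± 0.45 (adjusted p = 0.00284), and its first-step change is the largest rise among the members. Kcnv1 was low in both progenitor groups and rose at the second step by 4.94 ± 0.34 (adjusted p = 2.28e-06). It also passed at the first step in replicates 2 and 3 alone (0.0492).

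Kcnf1 had 54, 30 and 28 in proliferating progenitors, 44, 41 and 48 in differentiating progenitors, with 129, 100 and 141 in neurons, and rose at the second step (1.44 ± 0.27, adjusted p = 0.00159). Kcng3 and Kcns2 were at or near 0 in progenitors and reached 19 to 43 and 21 to 28 normalised reads in neurons. Kcns2 was listed at 0 in all differentiating progenitor libraries, and against a floor of 3 reads per library neurons were at least 8.5-fold higher. Kcns3 ran the other way, with 12, 21 and 21 in proliferating progenitors, 6, 6 and 6 in differentiating progenitors, with 6, 2 and 4 in neurons. Its first-step change of −1.40 ± 0.40 (adjusted p = 0.0313) was lost without differentiating progenitor library 1, 2 or 3 or neuron library 3 (adjusted p 0.0507 to 0.0834), and neurons were below proliferating progenitors, at −1.97 ± 0.40 (adjusted p = 0.00189).

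All 8 tested Kcnh rows passed at the first step, 7 as higher and 1 as lower, beside 13.8% and 11.1% of all genes. The Elk-type genes were higher at both steps. Kcnh3, an Elk channel of forebrain neurons, had 6, 3 and 2 in proliferating progenitors, 20, 18 and 16 in differentiating progenitors, with 1012, 1120 and 1214 in neurons. Its groups did not overlap, and it rose by 2.11 ± 0.30 (adjusted p = 0.00111) and 5.88 ± 0.30 (adjusted p = 4.35e-07). Kcnh4 had 10, 5 and 7 in proliferating progenitors, 31, 42 and 35 in differentiating progenitors, with 216, 230 and 207 in neurons, and rose at the second step by 2.57 ± 0.26 (adjusted p = 2.75e-05).

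Kcnh8, the other Elk gene, is listed under 2 identifiers, and the sources used here do not say how reads were divided between them. Under ENSMUSG00000035580 it had 1, 2 and 1 in proliferating progenitors, 10, 16 and 10 in differentiating progenitors, with 98, 96 and 85 in neurons. Under ENSMUSG00000073383 it had 0, 1 and 0 in proliferating progenitors, 2, 13 and 10 in differentiating progenitors, with 96, 84 and 69 in neurons. Both rows were highest in every neuron library, with second-step changes of 2.88 ± 0.31 (adjusted p = 3.98e-05) and 3.43 ± 0.58 (adjusted p = 8.56e-04).

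The Eag-type genes Kcnh1 and Kcnh5 rose at the first step and did not pass at the second. Kcnh5 had 80, 107 and 59 in proliferating progenitors, a mean of 286.3 ± 58.7 in differentiating progenitors (SD, n = 3), with 290, 215 and 209 in neurons, and Kcnh1 had 10, 4 and 1 in proliferating progenitors, 38, 36 and 36 in differentiating progenitors, with 56, 21 and 16 in neurons. Differentiating progenitors and neurons overlapped for both genes, and proliferating progenitors lay below. First-step changes were 1.81 ± 0.25 (adjusted p = 8.20e-04) for Kcnh5 and 2.97 ± 0.63 (adjusted p = 0.00872) for Kcnh1, and second-step values were −0.26 ± 0.25 (adjusted p = 0.409) and −0.44 ± 0.63 (adjusted p = 0.601).

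The Erg-type genes differed from each other. Kcnh2, the human homologue of which carries the cardiac rapid delayed rectifier, had 82, 98 and 114 in proliferating progenitors, 180, 145 and 207 in differentiating progenitors, with 523, 560 and 576 in neurons, and rose at both steps (0.85 ± 0.17, adjusted p = 0.00685, and 1.65 ± 0.17, adjusted p = 3.57e-05). Kcnh7 had 2206, 1946 and 1993 in proliferating progenitors, 1568, 1107 and 1213 in differentiating progenitors, with 2141, 1761 and 1887 in neurons. All differentiating progenitor libraries were below all others, with −0.67 ± 0.14 (adjusted p = 0.00664) at the first step and 0.59 ± 0.14 (adjusted p = 0.00531) at the second. The second-step call was lost under scaling to the library totals (0.0573), where Kcnh7 instead passed as lower in neurons than in proliferating progenitors (−0.38, adjusted p = 0.0469). Kcnh6, the last Erg gene, had at most 11 normalised reads and was not tested.

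Small-conductance calcium-activated channels (Kcnn), which contribute to the after-hyperpolarisation, were present in progenitors. At the second step 3 of 3 tested members rose, beside 27.6% of all genes called higher. Kcnn2 had 392, 282 and 292 in proliferating progenitors, 695, 854 and 967 in differentiating progenitors, with 1356, 1501 and 1533 in neurons. Kcnn1 had 89, 88 and 84 in proliferating progenitors, a mean of 283.0 ± 53.0 in differentiating progenitors (SD, n = 3), with 1058, 964 and 930 in neurons. Both rose without overlap, by 1.38 ± 0.16 (adjusted p = 3.34e-04) and 1.67 ± 0.15 (adjusted p = 8.85e-05) at the first step and 0.81 ± 0.16 (adjusted p = 0.00199) and 1.81 ± 0.15 (adjusted p = 6.89e-06) at the second. Kcnn3 had 152, 213 and 185 in proliferating progenitors, 189, 230 and 198 in differentiating progenitors, with 680, 687 and 657 in neurons, and changed at the second step alone (1.71 ± 0.14, adjusted p = 8.83e-06), with 0.17 ± 0.14 (adjusted p = 0.458) at the first.

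The sodium-activated channels Kcnt1 and Kcnt2 were low in progenitors. Kcnt1 had 15, 12 and 14 in proliferating progenitors, 15, 14 and 17 in differentiating progenitors, with 268, 383 and 364 in neurons, and rose at the second step by 4.36 ± 0.22 (adjusted p = 3.51e-07). Kcnt2 had 47, 54 and 67 in proliferating progenitors, 31, 34 and 37 in differentiating progenitors, with 325, 359 and 487 in neurons. Its differentiating progenitor libraries were below and its neuron libraries above all proliferating progenitor libraries. The second step gave 3.46 ± 0.21 (adjusted p = 1.08e-06), and the first-step change of −0.69 ± 0.21 (adjusted p = 0.0408) was lost without proliferating progenitor library 2 or 3 or differentiating progenitor library 1, 2 or 3 or neuron library 2 (adjusted p 0.0647 to 0.131), with no filter on low values (0.0548) and with only the 2 groups in the fit (0.0806).

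Kcnu1, known from mouse sperm, had 7, 12 and 14 in proliferating progenitors, 23, 24 and 18 in differentiating progenitors, with 99, 102 and 107 in neurons. It rose at the second step (2.20 ± 0.28, adjusted p = 1.23e-04), and its first-step call (0.96 ± 0.28, adjusted p = 0.0341) was lost without proliferating progenitor library 1 or 2 or differentiating progenitor library 1, 2 or 3 or neuron library 2 or 3 (adjusted p 0.0516 to 0.111), in replicates 2 and 3 alone (0.102), with no filter on low values (0.0523) and with only the 2 groups in the fit (0.0993). The tested BK accessory subunits moved in the same direction as Kcnma1. Kcnmb4, the main neuronal BK beta subunit, had 75, 56 and 45 in proliferating progenitors, 135, 144 and 134 in differentiating progenitors, with 383, 327 and 340 in neurons, and rose at both steps (1.25 ± 0.19, adjusted p = 0.00157, and 1.34 ± 0.19, adjusted p = 2.74e-04). Kcnmb2 was listed at 0 in all proliferating progenitor libraries and had 25, 41 and 50 in neurons, at least 12.4-fold higher against a floor of 3 reads per library. Its first-step call was lost without proliferating progenitor library 2 or differentiating progenitor library 2 (adjusted p 0.0502 to 0.0668) and with a pseudocount of 5 (0.0731).

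Of the 8 tested inward rectifiers, 5 were higher and 1 was lower at the second step, beside 27.6% and 26.4% of all genes. The 4 genes of the G-protein-gated channels, Kcnj3, Kcnj5, Kcnj6 and Kcnj9, all rose at the second step. Kcnj5 and Kcnj6 passed the filter only through neurons, so their higher calls are partly built in. Kcnj3 had 40, 21 and 16 in proliferating progenitors, 111, 157 and 157 in differentiating progenitors, with 789, 794 and 653 in neurons, and Kcnj5 had 3, 0 and 2 in proliferating progenitors, 2, 4 and 7 in differentiating progenitors, with 104, 84 and 88 in neurons. Kcnj3 rose stepwise without overlap (2.50 ± 0.31, adjusted p = 4.53e-04, and 2.40 ± 0.31, adjusted p = 1.36e-04), and Kcnj5 only left progenitor levels in neurons (4.23 ± 0.56, adjusted p = 1.66e-04). Kcnj9 had 33, 14 and 19 in proliferating progenitors, 47, 21 and 33 in differentiating progenitors, with 96, 98 and 113 in neurons, and gave 1.64 ± 0.36 (adjusted p = 0.0041) at the second step. Kcnj6 was listed at 0 in all proliferating progenitor libraries and had 27, 23 and 17 in neurons, at least 7.2-fold higher against the same floor. Its first-step call was lost without proliferating progenitor library 2 or 3 or differentiating progenitor library 2 (adjusted p 0.0522 to 0.0605), with a pseudocount of 5 (0.0886) and with only the 2 groups in the fit (0.061).

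Kcnj11 forms the pore of the ATP-sensitive channel with the sulphonylurea receptor Abcc8. Kcnj11 had 143, 130 and 110 in proliferating progenitors, 397, 492 and 380 in differentiating progenitors, with 2142, 1819 and 1583 in neurons. Abcc8 had 43, 26 and 33 in proliferating progenitors, 144, 363 and 293 in differentiating progenitors, with 3562, 5837 and 4849 in neurons. Both genes were ordered along the 3 groups with no overlap. Kcnj11 rose by 1.72 ± 0.16 (adjusted p = 1.06e-04) and 2.12 ± 0.16 (adjusted p = 3.91e-06), and Abcc8 by 2.86 ± 0.34 (adjusted p = 4.11e-04) and 4.22 ± 0.34 (adjusted p = 6.89e-06).

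Kcnj8, the pore of the vascular ATP-sensitive channel, and its receptor Abcc9 were found almost wholly in proliferating progenitors. Kcnj8 had 19, 31 and 23 in proliferating progenitors, 2, 0 and 0 in differentiating progenitors, with 0, 1 and 2 in neurons, and Abcc9, which was chosen here after its values were seen, had 50, 139 and 198 in proliferating progenitors, 16, 1 and 0 in differentiating progenitors, with 5, 2 and 9 in neurons. The first step gave −4.11 ± 0.59 (adjusted p = 0.0011) for Kcnj8 and −5.12 ± 1.00 (adjusted p = 0.00571) for Abcc9, and the size for Kcnj8 was −2.37 with a pseudocount of 5. The 7 pericyte and mural cell markers, which include Abcc9 and leave out Kcnj8, summed to 181 to 249 normalised reads in differentiating progenitors against 612 to 1214 in proliferating progenitors, with 43 to 53 in neurons, where Acta2 and Des were at 0. At the first step, where 11.1% of all genes were lower, 4 of these 7 were tested and all 4 were lower. Their part in the result for Kcnj8 was not tested.

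**Figure D5:**
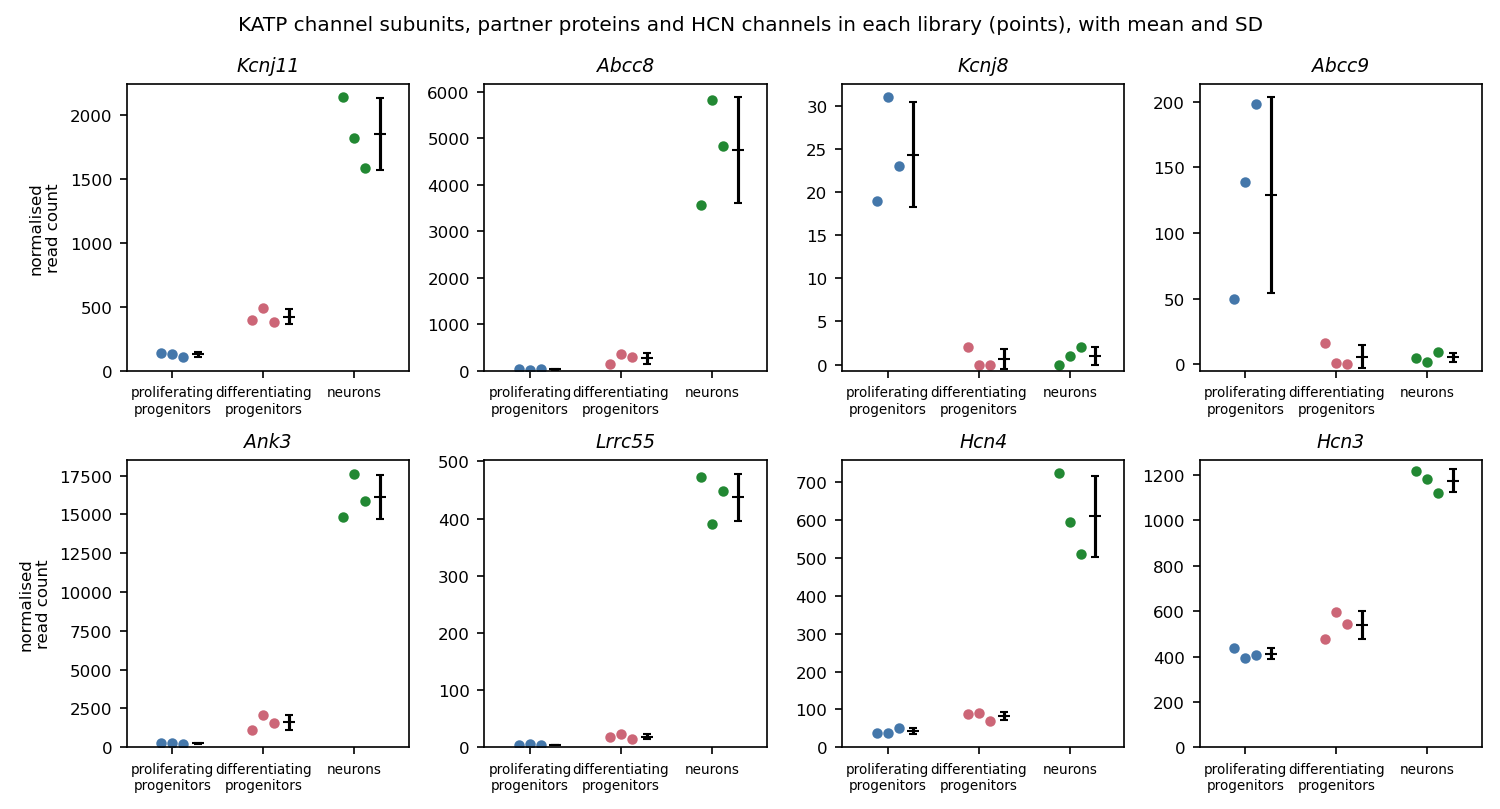
Normalised read counts per library, with the mean ± SD beside the points, of the ATP-sensitive channel pairs Kcnj11 and Abcc8, and Kcnj8 and Abcc9 (top), and of the partner proteins Ank3 and Lrrc55 and the cation channels Hcn4 and Hcn3 (bottom). Kcnj11, Abcc8, Ank3, Lrrc55, Hcn4 and Hcn3 are highest in neurons, and Kcnj8 and Abcc9 are highest in proliferating progenitors.

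Kcnj14 had 17, 15 and 14 in proliferating progenitors, 10, 7 and 15 in differentiating progenitors, with 8, 9 and 6 in neurons, and its fall in neurons against proliferating progenitors (−0.93 ± 0.33, adjusted p = 0.036) was lost without proliferating progenitor library 1, 2 or 3 or neuron library 1, 2 or 3 (adjusted p 0.0548 to 0.118), in replicates 2 and 3 alone (0.114) and with no filter on low values (0.0501). Kcnj2, Kcnj4 and Kcnj12, the classical strong rectifiers, had at most 8 normalised reads in any library and were not tested. Kcnj13, a gene of choroid plexus epithelium, had 7, 4 and 2 in proliferating progenitors, 12, 0 and 0 in differentiating progenitors, with 0, 0 and 0 in neurons, and was not tested either.

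Tandem-pore channels, which carry background leak currents, differed in direction at the second step within the TREK and THIK pairs. Of the TREK pair, Kcnk10 had 1380, 1340 and 1198 in proliferating progenitors, 1077, 1056 and 996 in differentiating progenitors, with 686, 631 and 521 in neurons. Kcnk2 had 590, 494 and 401 in proliferating progenitors, 384, 371 and 340 in differentiating progenitors, with 649, 650 and 692 in neurons. Kcnk10 was lowest in all neuron libraries and Kcnk2 was highest there. At the second step Kcnk10 fell (−0.78 ± 0.11, adjusted p = 3.54e-04) and Kcnk2 rose (0.86 ± 0.14, adjusted p = 6.40e-04). At the first step neither passed, with −0.32 ± 0.11 (adjusted p = 0.0729) and −0.42 ± 0.14 (adjusted p = 0.0569). Both passed as lower there with the replicate block (adjusted p = 0.00309 and 0.011), Kcnk10 also without neuron library 3 (adjusted p = 0.0428) and under scaling to the library totals (0.0302), and Kcnk2 also without proliferating progenitor library 3 (adjusted p = 0.0147) and under scaling to the library totals (0.032). Neurons over proliferating progenitors gave −1.10 ± 0.11 (adjusted p = 2.55e-05) for Kcnk10 and 0.44 ± 0.14 (adjusted p = 0.0212) for Kcnk2, a call for Kcnk2 that was lost without proliferating progenitor library 2 or 3 or neuron library 3 (adjusted p 0.0501 to 0.0681) and under scaling to the library totals (0.376).

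Of the acid- and alkaline-sensitive channels, Kcnk3 (TASK1) was scarce in progenitors and rose in neurons, whereas Kcnk5 fell as given above. Kcnk3 had 1, 1 and 2 in proliferating progenitors, 1, 1 and 6 in differentiating progenitors, with 106, 95 and 90 in neurons, and gave 5.01 ± 0.50 (adjusted p = 2.77e-05) at the second step. Of the THIK pair, Kcnk12 had 0, 1 and 0 in proliferating progenitors, 4, 5 and 7 in differentiating progenitors, with 59, 46 and 30 in neurons, and rose at both steps (2.30 ± 0.43, adjusted p = 0.00425, and 2.84 ± 0.43, adjusted p = 3.90e-04). The first-step size for Kcnk12 depends on the pseudocount, being 2.98 with 0.5 and 0.95 with 5. Kcnk13 had 1, 2 and 7 in proliferating progenitors, 20, 23 and 24 in differentiating progenitors, with 2, 2 and 3 in neurons. All 3 differentiating progenitor libraries were above all others, with 2.68 ± 0.50 (adjusted p = 0.00451) at the first step and −2.82 ± 0.50 (adjusted p = 0.00114) at the second, the first-step size being 1.78 with a pseudocount of 5. Kcnk13 is known from microglia, and 9 microglia markers summed to 97 to 127 normalised reads in differentiating progenitors against 178 to 254 in proliferating progenitors, with 27 to 38 in neurons. Their part in the values of Kcnk13 was not tested.

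Kcnk1, a weak rectifier, had 39, 19 and 16 in proliferating progenitors, 33, 15 and 12 in differentiating progenitors, with 61, 59 and 64 in neurons, and rose at the second step (1.70 ± 0.42, adjusted p = 0.00771). Its call for neurons over proliferating progenitors (1.38 ± 0.42, adjusted p = 0.0176) was lost without proliferating progenitor library 2 or 3 or neuron library 3 (adjusted p 0.0508 to 0.0662). Kcnk4, Kcnk6, Kcnk7 and Kcnk9 had at most 13 normalised reads in any library and were not tested.

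Among accessory subunits, the Kcnip genes encode calcium-binding proteins that bring Kcnd channels to the membrane. Kcnip1 had 130, 208 and 180 in proliferating progenitors, 579, 568 and 577 in differentiating progenitors, with 243, 293 and 285 in neurons. Kcnip3, also known as the transcriptional repressor DREAM, had 715, 893 and 851 in proliferating progenitors, 1034, 1057 and 1087 in differentiating progenitors, with 562, 660 and 698 in neurons. Both were highest in all differentiating progenitor libraries. Kcnip1 rose at the first step (1.76 ± 0.17, adjusted p = 1.44e-04) and fell at the second (−1.07 ± 0.17, adjusted p = 5.89e-04), with neurons above proliferating progenitors by 0.68 ± 0.17 (adjusted p = 0.00661), a call lost under scaling to the library totals (0.0594). Kcnip3 gave 0.38 ± 0.12 (adjusted p = 0.0432) and −0.73 ± 0.12 (adjusted p = 5.37e-04). The first-step call for Kcnip3 was lost without proliferating progenitor library 1, 2 or 3 or differentiating progenitor library 1, 2 or 3 or neuron library 2 or 3 (adjusted p 0.052 to 0.124), with no filter on low values (0.0546), under scaling to the library totals (0.0793), with only the 2 groups in the fit (0.0565) and without the intensity trend (0.0631), and neurons were below proliferating progenitors, at −0.36 ± 0.12 (adjusted p = 0.0231), lost without proliferating progenitor library 2 or 3 or neuron library 1 (adjusted p 0.0699 to 0.0862).

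The other Kcnip genes were rarer. Kcnip2 had 30, 28 and 19 in proliferating progenitors, 20, 18 and 17 in differentiating progenitors, with 63, 74 and 69 in neurons, and rose at the second step (1.85 ± 0.24, adjusted p = 1.32e-04). Kcnip4 had 26, 18 and 29 in proliferating progenitors, 12, 10 and 9 in differentiating progenitors, with 8, 11 and 4 in neurons. Neuron libraries of Kcnip4 were below all proliferating progenitor libraries, with −1.61 ± 0.38 (adjusted p = 0.00445). Its first-step value of −1.14 ± 0.38 (adjusted p = 0.0558) passed with the replicate block (adjusted p = 0.0314) and without neuron library 3 (adjusted p = 0.0337), with a pseudocount of 5 (0.0313), under scaling to the library totals (0.0427), with only the 2 groups in the fit (0.0407) and without the intensity trend (0.0372).

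With Kcnip1, Kcnip3 and Kcnk13, 3 members were highest in differentiating progenitors (2.2% of all genes), and 3, among them Kcnh7 and Kcnt2, were lowest there (2.51% of all genes). Kcnk13 passed the filter only through differentiating progenitors, so its place among the highest is partly built in. With the replicate block the counts highest and lowest there were 5 and 6, for which no share of all genes is given here. The block added Kcna3 and Kcne1l to the highest, and Kcnab2, Kcnab3 and Kcnk2 to the lowest. Without any 1 of differentiating progenitor libraries 1, 2 and 3 the first count was 1. Kcnk13 was not tested in those fits, since the filter still asked for 3 libraries, and Kcnip3 lost its first-step call. Without proliferating progenitor library 2, differentiating progenitor library 2 or 3, or neuron library 2 the other count was 1. For these counts too no share of all genes is given here.

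Kcne1l, whose product is also named KCNE5 and which in humans inhibits Kcnq1 channels, was a progenitor gene. It had 298, 302 and 249 in proliferating progenitors, 510, 386 and 300 in differentiating progenitors, with 53, 32 and 32 in neurons. All neuron libraries were far below all progenitor libraries, with −3.33 ± 0.25 (adjusted p = 4.23e-06) at the second step. Its first-step value of 0.46 ± 0.25 (adjusted p = 0.23) passed with the replicate block (adjusted p = 0.0293).

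Kcne2, a partner of several channels and a choroid plexus gene, had 65, 9 and 16 in proliferating progenitors, 33, 1 and 5 in differentiating progenitors, with 4, 1 and 3 in neurons. The replicate 1 libraries of both progenitor groups were highest. Its call as lower in neurons than in proliferating progenitors (−2.71 ± 1.04, adjusted p = 0.0452) was lost without differentiating progenitor library 3 or neuron library 1, 2 or 3 (adjusted p 0.0565 to 0.135), with a pseudocount of 5 (0.0522) and without the intensity trend (0.0579), and with the replicate block it passed as lower at the first step (adjusted p = 0.0289). The 7 choroid plexus markers, without Kcne2 and Kcnj13, summed to 1568, 406 and 414 normalised reads in differentiating progenitors and 1471, 435 and 821 in proliferating progenitors, with 40 to 43 in neurons. Their part in the values of Kcne2 was not tested.

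The Kcnab genes encode cytoplasmic beta subunits of Kcna channels, and all 3 rose at the second step, where 27.6% of all genes were higher. Kcnab1 passed the filter only through neurons, so its call is partly built in. Kcnab2 had 270, 274 and 328 in proliferating progenitors, 240, 193 and 254 in differentiating progenitors, with 342, 408 and 396 in neurons. Kcnab3 had 162, 161 and 191 in proliferating progenitors, 135, 132 and 135 in differentiating progenitors, with 265, 277 and 306 in neurons. Neuron libraries were highest for both, with second-step changes of 0.74 ± 0.15 (adjusted p = 0.00213) and 1.07 ± 0.13 (adjusted p = 8.50e-05). At the first step both passed as lower with the replicate block (adjusted p = 0.0328 and 0.0212), and Kcnab3 under scaling to the library totals (0.0464) and without the intensity trend (0.0466). For Kcnab2, neurons over proliferating progenitors gave 0.39 ± 0.15 (adjusted p = 0.0408), lost without proliferating progenitor library 1 or 2 or neuron library 2 or 3 (adjusted p 0.108 to 0.125) and under scaling to the library totals (0.564). Kcnab1 had 4, 2 and 2 in proliferating progenitors, 2, 3 and 3 in differentiating progenitors, with 20, 50 and 58 in neurons, and gave 3.45 ± 0.46 (adjusted p = 1.67e-04) at the second step.

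Kcnrg, which in humans suppresses assembly of voltage-gated channels, had 11, 11 and 10 in proliferating progenitors, 18, 13 and 12 in differentiating progenitors, with 28, 35 and 27 in neurons, and rose at the second step (1.03 ± 0.26, adjusted p = 0.00829). Of the accessory genes, Kcne1, Kcne4 and Kcnmb1 had at most 7 normalised reads and were not tested. The other untested members were Kcna5, Kcng2 and Kcnn4, the last with 28, 5 and 10 normalised reads in proliferating progenitors and 0 in all neuron libraries. Kcnn4 is known from red cells, and 8 red cell markers summed to 102708 to 255901 normalised reads in proliferating progenitors, highest in library 1 as for Kcnn4, and to 212 to 2024 in differentiating progenitors and 193 to 273 in neurons. Their part in the values of Kcnn4 was not tested.

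Summed over each list, markers of other neuron types were also highest in the neuron libraries. The 10 interneuron markers summed to 90 to 1013, 455 to 2953 and 8172 to 9581 normalised reads in proliferating progenitors, differentiating progenitors and neurons, and 6 Cajal-Retzius cell markers to 90 to 125, 1031 to 1306 and 17432 to 20377. At the second step 7 interneuron markers were higher, 0 lower and 3 not called, and 5 Cajal-Retzius cell markers were higher and 1 lower. Of all genes, 27.6% were higher and 26.4% lower at that step. The part of these markers in the rises of the Kcn genes was not tested, and no marker of either list was at 0 in all libraries of a group. Endothelial markers summed to 184 to 610, 197 to 265 and 57 to 107, meningeal markers to 222 to 2955, 79 to 155 and 11 to 48, and oligodendrocyte precursor markers to 267 to 302, 177 to 301 and 22 to 32 in the same groups.

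Channel partners with symbols outside Kcn were read from a list of 28 genes, of which 24 were tested. At the first step 7 were higher and 6 lower (median 0.11), beside 13.8% and 11.1% of all genes (median −0.02). At the second 18 were higher and 0 lower (median 1.62), beside 27.6% and 26.4% of all genes (median −0.01). Between neurons and proliferating progenitors 18 were higher and 3 lower (median 1.44), beside 32.2% and 31.1% of all genes. Ank3, the ankyrin that anchors M-current channels at the axon initial segment, had 287, 275 and 190 in proliferating progenitors, 1147, 2084 and 1592 in differentiating progenitors, with 14819, 17629 and 15862 in neurons. Its groups were ordered without overlap, as for Kcnq3, with 2.66 ± 0.22 (adjusted p = 6.81e-05) and 3.36 ± 0.22 (adjusted p = 1.92e-06).

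Lrrc55, a gamma subunit of BK channels, had 4, 5 and 4 in proliferating progenitors, 18, 23 and 14 in differentiating progenitors, with 472, 391 and 448 in neurons, and rose at the second step by 4.52 ± 0.24 (adjusted p = 4.73e-07). Adam22, a receptor at synapses that binds the Kcna-associated protein Lgi1, had 618, 631 and 724 in proliferating progenitors, 790, 1000 and 1003 in differentiating progenitors, with 2960, 3371 and 3231 in neurons, and gave 1.78 ± 0.12 (adjusted p = 1.83e-06). Ank2, another ankyrin, fell at the first step (−0.49 ± 0.10, adjusted p = 0.00614) and rose at the second (2.14 ± 0.10, adjusted p = 2.34e-07). Fgf13, an intracellular fibroblast growth factor homologue, did the same, with −1.36 ± 0.15 (adjusted p = 2.64e-04) and 0.85 ± 0.15 (adjusted p = 0.0011). The Kcnd partners Dpp6 and Dpp10, named after their values were seen, gave 3.16 ± 0.22 (adjusted p = 2.60e-06) and 6.56 ± 0.59 (adjusted p = 1.39e-05) at the second step and did not pass at the first.

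HCN and other cyclic-nucleotide-gated channels are relatives of Kcnh channels that pass sodium as well as potassium. Of 10 listed, 5 were tested. Hcn4 had 39, 39 and 52 in proliferating progenitors, 87, 91 and 70 in differentiating progenitors, with 724, 594 and 511 in neurons. Hcn3 had 438, 393 and 407 in proliferating progenitors, 477, 598 and 545 in differentiating progenitors, with 1219, 1184 and 1120 in neurons. Both rose at the second step (2.86 ± 0.20, adjusted p = 2.27e-06, and 1.12 ± 0.11, adjusted p = 1.78e-05). Cngb1 was highest in all differentiating progenitor libraries, at 43, 35 and 51 normalised reads, against 12, 11 and 7 in proliferating progenitors and 15, 3 and 9 in neurons (2.01 ± 0.49, adjusted p = 0.0159, and −2.34 ± 0.49, adjusted p = 0.00289).

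Hcn2 had 17, 37 and 22 in proliferating progenitors, 12, 25 and 10 in differentiating progenitors, with 52, 55 and 50 in neurons, and gave −0.69 ± 0.39 (adjusted p = 0.242) at the first step and 1.78 ± 0.39 (adjusted p = 0.00352) at the second. Sodium pump subunits, which build the potassium gradient, formed a list of 13 genes of which 9 were tested, and its genes are not named here. Of these, 1 was higher and 2 were lower at the first step (median −0.07), 4 and 2 at the second (median −0.18), and 2 and 3 between neurons and proliferating progenitors (median 0.07). Shares of all genes higher and lower were 13.8% and 11.1%, 27.6% and 26.4%, and 32.2% and 31.1% in the same comparisons.

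In a later annotation (GENCODE M21 on GRCm38), 24 members share exon sequence with a gene on the opposite strand. They include Kcna6, Kcnd3, Kcnh3, Kcnh7, Kcnk2, Kcnma1, Kcnn2, Kcnq5 and Kcnt2. The libraries kept strand, but the sources used here do not say whether the counting used it, so reads of these genes and of their partners may not be separated. Kcnab2 and Kcnk4 overlap a gene on the same strand.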

How the data were processed

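RNA of 9 sorted-cell libraries, 3 per population, was measured by strand-specific sequencing of polyadenylated RNA. The table deposited by the authors holds normalised read counts per gene rounded to whole numbers, which are treated as a score and not as raw counts, since the values are whole numbers after division by a factor per library. The same table as deposited holds the authors' group means, their fold changes as a linear ratio, their adjusted p-values, and gene lengths in bases (other). The submitters' processing notes name CASAVA 1.8.0, BWA, bedtools 2.11, DESeq 1.8.1, build mm9 and Ensembl 61, with no role for each; the sources used here do not say whether the counting used strand. Library depths were estimated from which small whole numbers occur in each column, since these show what 1 read is worth.

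Values were tested as log2(value + 1) with limma (version 3.58.1, R version 4.3.3) using an intensity trend and 3 group means over all 9 libraries (6 residual degrees of freedom), genes with at least 10 in at least 3 libraries, and Benjamini-Hochberg adjustment at 0.05 over all genes tested. A count model had been planned only for raw counts. The procedure was tested on simulated data. Nothing ties a p-value to single animals, since each library is a pool, so p-values measure the spread between pools.

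Samples with the same replicate number deviated together from their group means, with r of 0.507 to 0.767 in all 9 same-number pairs and −0.64 to 0.428 in the other 18, so the numbers pair the samples, and a fit with the number as a block (4 residual degrees of freedom) is given where it changes a call. Other alternatives were TMM scaling, scaling to the library totals, pseudocounts of 0.5 and 5, a minimum of 50 or none, no trend, only the 2 groups compared, replicates 2 and 3 only, and leaving out each library. The members and lists were chosen with earlier results of these data known. Per comparison, the 8 largest rises and 8 largest falls with no overlap and a higher group mean of at least 50 are described by library, with the 10 highest members per kilobase, the leading member of each subfamily and those highest or lowest in differentiating progenitors; the other members' values were added after they were seen. Of the lists of channel partners and HCN channels, genes are named from the 4 with the smallest adjusted p per comparison. Some members and partner genes are not reported here. Floors of 3 reads cover counting error only.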

Additional observations from a re-analysis of the deposited data

How the results depend on the processing

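The direction held for every member call under every alternative, and no called member turned. Of the called members, 25 of 34 at the first step, 53 of 58 at the second and 54 of 61 between neurons and proliferating progenitors passed under every alternative that gave a value, and 12 of 31, 0 of 7 and 3 of 4 uncalled members passed under at least 1. The number lower at the first step was 12 instead of 5 with the replicate block, 9 with scaling to the library totals, 3 with a minimum of 50, and 2 to 7 without single libraries. Of all genes, 22% were lower at that step with the block, 14.2% with that scaling, 12.2% with that minimum and 6.76% to 12% without single libraries. The number lower in neurons than in proliferating progenitors was 6 instead of 11 with a minimum of 50, and 6 to 11 without single libraries. Of all genes, 30.9% were lower there with that minimum and 28.1% to 32.1% without single libraries. The numbers highest and lowest in differentiating progenitors, 3 each, were 5 and 6 with the replicate block and 1 to 3 each without single libraries, and the number lowest there was 1 with no filter on low values. For these alternatives no share of all genes is given here. The replicate block changed no call other than those given in the report. Leaving out a library leaves its group with 2, which are assumed to vary like the other groups. Members with low values gave no value under the minimum of 50, where 50 of the 65 had one. In replicates 2 and 3 alone 51 of the 65 had one. The filter still asked for 3 libraries there, so members passing it through only 1 group dropped out at any level. Among them were Kcna4, Kcnj5 and Kcnk3, with 63 to 106 normalised reads in neurons. These 3 also dropped out without any 1 neuron library. In those fits 38 to 40 members were higher at the second step, beside 22.9% to 25.6% of all genes. The cause of these changes was not tested. The 16 members under the filter were tested only with no filter on low values, and the size of a change near 0 reads depends on the pseudocount.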

Other observations

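The authors' deposited table carries its own adjusted p-values for the same comparisons. At 0.05 or below, as rounded there, it lists 26 members as higher and 4 as lower at the first step. Of these, 26 and 3 were called the same way here. No share of all genes is given here for the authors' calls. At the second step it lists 48 and 8, of which 48 and 8 were shared, and between neurons and proliferating progenitors 50 and 9, of which 49 and 8 were shared. The 8 lower at the second step include Kcna3, whose adjusted p is rounded to 0.05 there. Of the members listed in the authors' deposited table, 0 were called in the opposite direction. The authors' lower call not shared at the first step was Kcnk5, with their adjusted p of 3.6e-06.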
